A study of Mus musculus with 31 samples.

Results

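Gene expression was compared by RNA-seq between mouse cells of the strain 129/OG2 kept with DKG and with DMSO while they were being reprogrammed by OKSM, the factors Pou5f1 (Oct4), Klf4, Sox2 and Myc. All 8 reprogramming libraries with DKG were set against all 8 with DMSO, out of 31 libraries in the series. They form 8 pairs that share a virus (Flag or Tet1CD), a day of collection (3 or 8) and a number in the sample title (0824 or 0826), and differ only in the labelled compound. The 8 groups were Flag cells with DMSO at day 3, Flag cells with DKG at day 3, Tet1CD cells with DMSO at day 3, Tet1CD cells with DKG at day 3, and the same 4 at day 8, with 2 libraries each. Another 8 libraries of the same viruses, days and numbers, kept with vitamin C (Vc), served for a direct comparison of DKG with Vc. DMSO is taken as the vehicle and the Flag virus as the control. The labels do not spell out DKG, give no doses, and do not say what Tet1CD contains or how OKSM was delivered. Whether the 2 libraries of each group stem from different cultures is not stated, and the p-values therefore reflect a library-to-library spread that could be technical alone.

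Reprogramming turns a somatic cell into a pluripotent one. Fibroblast genes are shut down, epithelial genes come on, and the pluripotency network, with Nanog, Gdf3, Tdgf1 and Lin28a among its members, is switched on late and in few of the cells. TET enzymes, of which Tet1 is one, oxidise methylated cytosine in DNA. They belong to the dioxygenases that use iron and 2-oxoglutarate, a metabolite of the TCA cycle, and vitamin C keeps their iron in the reduced state. The same chemistry serves histone demethylases, the collagen prolyl hydroxylases and the enzymes that mark HIF, the hypoxia factor, for degradation. Genes of these families were therefore among the lists examined.

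The 16 libraries held between 3953297 and 6818060 counts. Levels are given as CPM, the count scaled to the effective size of each library. A gene with no count could still lie at up to 3 counts, which is 0.44 to 0.759 CPM. Tet1 lay between 4.31 and 15.5 CPM in the 8 libraries labelled Flag and between 302 and 678 CPM in the 8 labelled Tet1CD, so the 2 viruses did not overlap. Its level did not follow the compound, with a log2 fold change of 0.01 ± 0.06 (SE) between DKG and DMSO. Of the variance of log2 levels among the 16 libraries, 48% lay between combinations of virus and day, 35.6% between the numbers within them, and 2.19% between DKG and DMSO. The SD across genes of the log2 ratio of DKG to DMSO was 0.184 to 0.325 within the 8 pairs, over 9814 genes with a mean of at least 10 CPM. That between the libraries 0824 and 0826 of one group was 0.394 to 0.649. The DKG library of a pair therefore lay closer to its DMSO partner than to the other library of its own group, and each test below compares DKG with DMSO within pairs.

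No gene passed the threshold over the 8 pairs. With edgeR's quasi-likelihood test, 0 of 13619 genes (0%) had an adjusted p under 0.05 (Benjamini-Hochberg over all genes), and the lowest adjusted p was 0.115. At an unadjusted p under 0.05 there were 1290 genes (9.47%), of which 629 (4.62%) were higher and 661 (4.85%) lower with DKG. The count of calls depended on the settings. DESeq2's Wald test on the same pairs called 1 gene higher and 10 lower, edgeR without its filter on low counts called 48 higher and 62 lower, and limma on log2(TPM + 1) called 0. Of the 110 genes called without the filter, 106 were also among the 13619 genes of the main test, so most of these calls were not of rarely counted genes. DKG was the higher member in 8 of 8 pairs for 102 genes (0.749%) and the lower one for 143 (1.05%). The differences themselves were small. The median size of the log2 fold change was 0.0668, and for 13097 genes (96.2%) the 95% interval of the fold change lay within 2-fold in either direction. For 11653 genes (85.6%) it lay within 1.5-fold. These intervals cover the spread between pairs and do not show that a gene was the same with both compounds.

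The reprogramming factors stood lower with DKG in most pairs. Klf4 (chromosome 4, 55527143 to 55532466 in mm10), a zinc finger factor of OKSM, lay between 620 and 2494 CPM with DMSO, with a median of 1387, and between 553 and 2003 CPM with DKG, with a median of 1141. The ranges overlap, but DKG was the lower member in 7 of 8 pairs, with a log2 fold change of -0.20 ± 0.05 (SE; unadjusted p = 0.000372, adjusted p = 0.193, edgeR). Myc, a growth-promoting factor, had medians of 1279 CPM with DMSO and 1102 with DKG and was lower in 8 of 8 pairs (-0.18 ± 0.04, adjusted p = 0.203). Sox2 had medians of 722 and 598 CPM and was lower in 7 pairs (-0.17 ± 0.04, adjusted p = 0.218). Pou5f1 had medians of 1468 and 1375 CPM and was lower in 5 pairs (-0.08 ± 0.04, adjusted p = 0.56). None of the 4 passed in the main test, while DESeq2 called Klf4, Sox2 and Myc lower (adjusted p = 0.0197, 0.0394 and 0.0342).

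The pair with the largest difference in these genes was that of Flag cells numbered 0824 at day 8. In it Klf4 went from 1448 CPM with DMSO to 1021 with DKG, Myc from 1252 to 931, Sox2 from 711 to 540 and Pou5f1 from 1537 to 1260. In Tet1CD cells of the same day and number, Klf4 went from 993 to 855 CPM and Pou5f1 from 1112 to 1126. The median log2 fold change of the 4 genes was -0.142 in Flag cells and -0.044 in Tet1CD cells at day 3. At day 8 it was -0.342 and -0.095. The difference between viruses had unadjusted p = 0.0467 for Klf4 and 0.0196 for Myc (edgeR), and it did not pass for any of the 4 (adjusted p from 0.907 to 0.916). Reads of introduced factors and of the endogenous genes cannot be told apart in these counts, so the values cover both. Beside Vc, the 4 genes did not stand apart: DKG against Vc gave log2 fold changes of 0.05 to 0.06 for Klf4, Myc and Pou5f1, and -0.02 for Sox2 (adjusted p from 0.706 to 0.928).

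**Figure D1:**
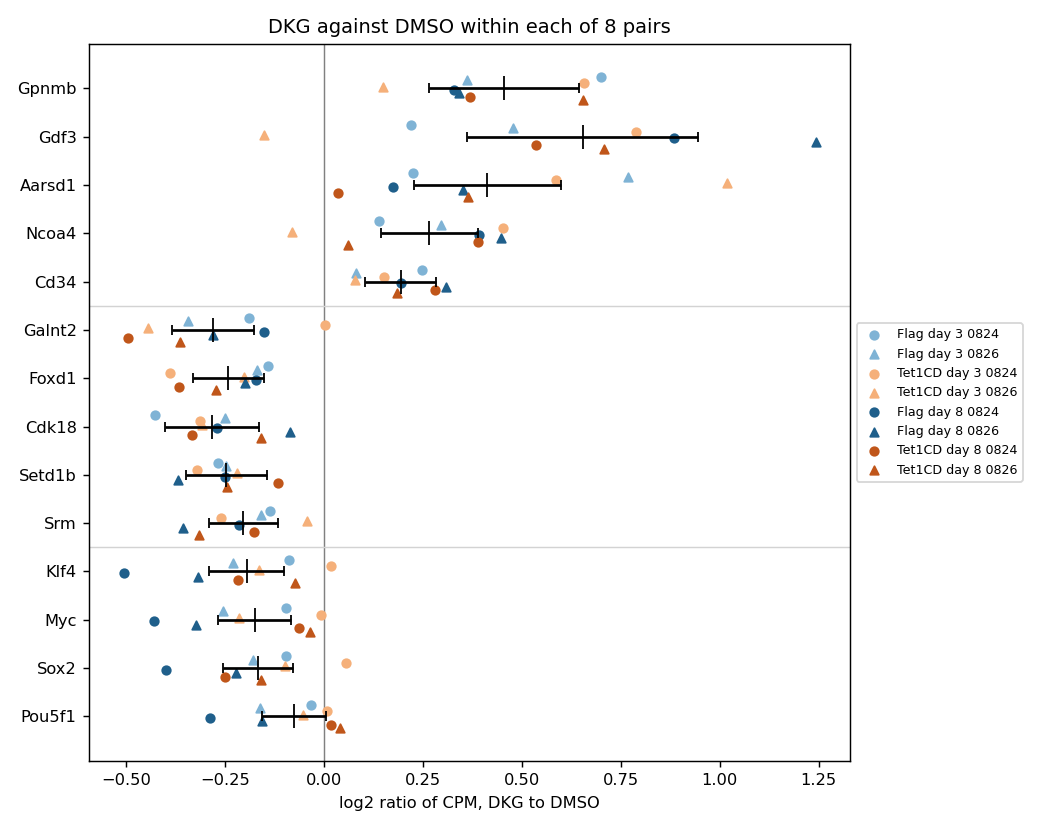
Log2 ratio of CPM with DKG to CPM with DMSO in each of the 8 pairs (points; colour gives virus and day, shape gives the number) for genes with the lowest p in either direction and the 4 reprogramming factors; black bars give the fitted log2 fold change with its 95% interval. Gpnmb, Aarsd1 and Cd34 lie above 0 in 8 of 8 pairs, and Foxd1, Cdk18, Setd1b, Srm and Myc below 0 in 8 of 8.

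Among the genes with the lowest p that stood higher with DKG, Gpnmb (chromosome 6, 49036546 to 49070929), which encodes a membrane glycoprotein of lysosomes and pigment cells, lay between 2.79 and 32.7 CPM with DMSO (median 11.8) and between 3.64 and 36.3 with DKG (median 15.4). It was higher with DKG in 8 of 8 pairs, by 0.46 ± 0.09 on the log2 scale (adjusted p = 0.141). Vc stood higher still, and DKG was lower than Vc by -1.73 ± 0.49 (adjusted p = 0.0495). A single Vc library, of Tet1CD cells numbered 0824 at day 8, reached 678 CPM, and the 16 macrophage and blood markers summed to as much as 1529 CPM in a Vc library against at most 35.6 with DKG and 33.4 with DMSO. The part of such cells in the Vc value was not tested.

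Gdf3 (chromosome 6, 122605403 to 122610087), a growth factor of pluripotent cells, stood at 19.7 and 15.3 CPM with DMSO in Tet1CD cells at day 8 and at 28.7 and 25.3 CPM with DKG. The 2 DKG libraries thus lay above the 2 DMSO libraries. In Flag cells of that day it stood at 0.874 and 0.761 CPM with DMSO and 1.95 and 2.34 with DKG, which is only a few counts above the detection limit. Over the 8 pairs it was higher in 7, by 0.65 ± 0.14 (adjusted p = 0.142). Cd34, a surface sialomucin of blood progenitors and of stromal cells, had medians of 103 CPM with DMSO and 112 with DKG and was higher in 8 pairs by 0.19 ± 0.04 (adjusted p = 0.145). Plac9a had the largest fitted difference, but it rests on single libraries: it had no count in any DMSO library and in 5 of 8 DKG libraries, and its highest level was 5.33 CPM. Its transcripts share 99.7% of their stretches of 50 bases with other genes.

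On the lower side, Foxd1 (chromosome 13, 98354242 to 98359305), a forkhead transcription factor of stromal and renal mesenchyme, lay between 55.9 and 317 CPM with DMSO (median 195) and between 48.6 and 253 with DKG (median 161). DKG was lower in 8 of 8 pairs, by -0.24 ± 0.04 on the log2 scale (unadjusted p = 1.68e-05, adjusted p = 0.115). DESeq2 called it at adjusted p = 0.00323, and in edgeR it passed without the filter (adjusted p = 0.000549) and without the pair of Flag cells numbered 0826 at day 8 (adjusted p = 0.0471). Those were 3 of 18 alternative settings. In the other 15 it did not pass, with adjusted p up to 1. Across the 18 its log2 fold change stayed between -0.26 and -0.21. Srm, the enzyme that makes spermidine, had medians of 259 and 215 CPM, and was lower in 8 pairs by -0.20 ± 0.04 (adjusted p = 0.141; 0.00752 by DESeq2). Setd1b, a methyltransferase for lysine 4 of histone H3, had medians of 55.7 and 48.9 CPM (-0.25 ± 0.05) and Cdk18, a cyclin-dependent kinase, of 37.4 and 30.5 CPM (-0.28 ± 0.06), each lower in 8 pairs with adjusted p = 0.141.

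Several of the lowest p-values belonged to genes that share sequence with another gene. Galnt2 (chromosome 8, 124231391 to 124345724), which starts O-linked glycosylation in the Golgi, had the lowest p of all, with medians of 282 CPM with DMSO and 227 with DKG (-0.28 ± 0.05, lower in 7 of 8 pairs, adjusted p = 0.115). Of its 4324 stretches of 50 transcript bases, 3807 (88%) are also in Gm20388, a longer gene model on the same strand that ends within 2 bases of it. Gm20388 stood the other way, at 76.9 and 108 CPM (0.35 ± 0.09, higher in 6 pairs). The sum of both genes had medians of 362 CPM with DMSO and 339 with DKG, and a mean log2 ratio of -0.12 ± 0.07 (SD, 8 pairs), lower in 8 of 8. Aarsd1 and Gm27029 on chromosome 11 overlap in the same way and share 1201 such stretches. Aarsd1, an alanyl-tRNA editing factor, was higher in 8 pairs (0.41 ± 0.09, adjusted p = 0.142), with medians of 22.3 and 26.9 CPM. Gm27029 was lower in 7 (-1.26 ± 0.23, adjusted p = 0.12), with medians of 9.27 and 3.92 CPM. Their sum stood at 30.3 and 31.9 CPM, with a mean log2 ratio of 0.05 ± 0.09 (SD, 8 pairs), higher in 7. Ncoa4, the receptor that carries ferritin to the lysosome, shares 1729 stretches with the processed pseudogene Gm6768. Alone it was higher in 7 pairs, by 0.27 ± 0.06 (SE, adjusted p = 0.142, edgeR). The sum of both had a mean log2 ratio of 0.08 ± 0.06 (SD, 8 pairs), higher in 8 of 8. Reads of such genes are divided between them by an estimate, so the single values are uncertain. The ratios of the 3 sums were nearer to 0 than those of Galnt2, Aarsd1 and Ncoa4.

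**Figure D2:**
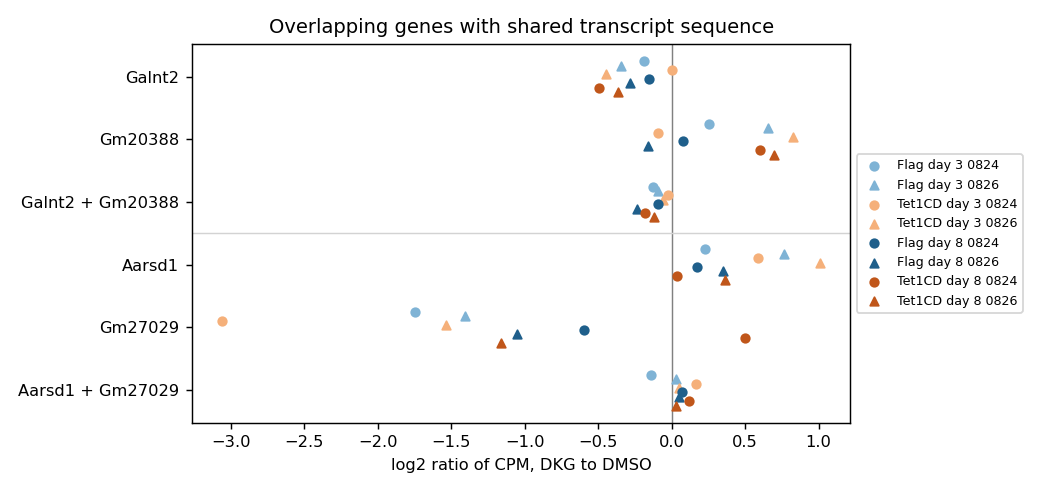
Log2 ratio of CPM with DKG to CPM with DMSO in each of the 8 pairs (points) for 2 pairs of overlapping genes and for the sum of each. Gm27029 spreads from -3.06 to 0.50, while the sum of Aarsd1 and Gm27029 lies between -0.14 and 0.17; the sum of Galnt2 and Gm20388 lies between -0.24 and -0.03.

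The size of the difference followed the base composition of the transcripts. Over 9784 genes with a mean of at least 10 CPM and a known GC content, the mean log2 ratio of the 8 pairs had Pearson's r = -0.52 with the percentage of G and C (across genes, which share their libraries and are not independent replicates). The genes were divided into 5 equal classes by GC content. In the class with the least GC, 33.6% to 44.4%, the median log2 fold change was 0.05, and 207 genes were higher and 4 lower at an unadjusted p under 0.05. In the class with the most, 55.4% to 74.7%, the median was -0.07, with 12 higher and 396 lower. The pairs differed: r was -0.655 in Flag cells numbered 0826 at day 8, between -0.259 and -0.227 in 4 pairs, and -0.0152, 0.0239 and 0.143 in the other 3. With a correction for GC content in each library and the same pairs, the medians of the 5 classes lay between -0.003 and -0.001. The correction removes a curve fitted to GC content, so medians near 0 follow from how it was made. With the correction 927 genes (6.81%) had an unadjusted p under 0.05 and 0 passed the adjustment. The part of library preparation in this relation was not tested.

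**Figure D3:**
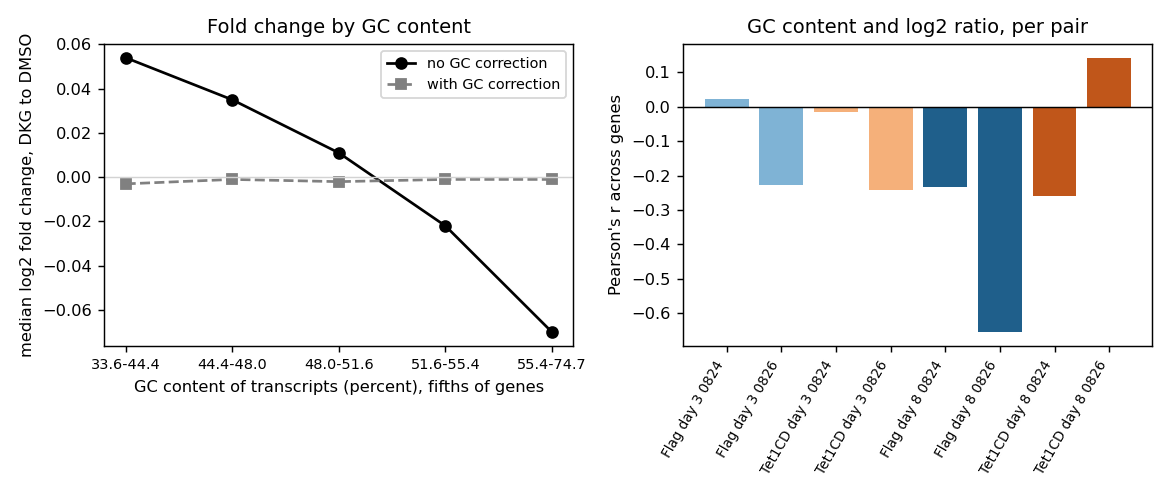
Left, the median log2 fold change of DKG against DMSO in 5 equal classes of 9784 genes ordered by transcript GC content, without and with a correction for GC content in each library. Right, Pearson's r across the same genes between GC content and the log2 ratio of each pair. The uncorrected medians go from 0.05 to -0.07, and Flag cells numbered 0826 at day 8 have the strongest relation at r = -0.655.

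Coding sequence of 4 genes shows the contrast in composition. They are protein-coding genes with a mean of at least 10 CPM and an unadjusted p under 0.05 (edgeR). Ctdspl2 and Dcn have the least GC among 74 that were higher with DKG in 8 of 8 pairs. Foxp4 and Tbx2 have the most, after Gm47283 at 65.9%, among 111 that were lower in 8 of 8. Gm47283 shares 40.5% of its stretches of 50 bases with another gene. Genes that share much sequence with others were left out, and so were genes of a single chromosome. The choice used GC content over whole transcripts, at 39.6%, 40.1%, 63.5% and 63.2%, and Dcn stands less apart in its coding bases. The 4 genes were thus chosen for their values. Each line gives 120 coding bases of a GENCODE M21 transcript (mm10), 5′ to 3′, at the place where the GC content is nearest to that of the whole coding sequence, with G and C in capitals.
Ctdspl2: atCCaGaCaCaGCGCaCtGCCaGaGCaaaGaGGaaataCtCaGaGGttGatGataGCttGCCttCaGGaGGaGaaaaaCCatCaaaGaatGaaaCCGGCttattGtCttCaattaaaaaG
Dcn: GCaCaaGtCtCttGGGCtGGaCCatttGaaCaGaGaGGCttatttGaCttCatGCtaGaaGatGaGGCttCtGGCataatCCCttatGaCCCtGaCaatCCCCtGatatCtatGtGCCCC
Foxp4: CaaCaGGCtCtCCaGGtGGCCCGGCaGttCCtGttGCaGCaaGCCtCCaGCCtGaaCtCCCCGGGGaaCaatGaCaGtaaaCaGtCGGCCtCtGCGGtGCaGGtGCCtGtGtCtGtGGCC
Tbx2: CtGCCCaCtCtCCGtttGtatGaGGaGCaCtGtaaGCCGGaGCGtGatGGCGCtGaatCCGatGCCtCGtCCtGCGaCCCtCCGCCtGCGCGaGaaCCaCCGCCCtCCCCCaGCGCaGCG
Of the bases shown, 42.5% are G or C in Ctdspl2 (bases 43 to 162 of 1395) and 47.5% in Dcn (bases 31 to 150 of 1062), against 62.5% in Foxp4 (bases 217 to 336 of 2055) and 66.7% in Tbx2 (bases 901 to 1020 of 2133). Dcn (chromosome 10, 97479609 to 97518143), the matrix proteoglycan decorin, had medians of 47.2 CPM with DMSO and 54 with DKG, with pair ratios of 0.11 to 0.41 on the log2 scale and a log2 fold change of 0.21 ± 0.05. Corrected for GC it was 0.14. Ctdspl2 (chromosome 2, 121956001 to 122013642), a phosphatase-like protein, had medians of 44 and 49.9 CPM and a log2 fold change of 0.19, and 0.12 when corrected. Tbx2 (chromosome 11, 85832551 to 85841948), a T-box transcription factor, had medians of 38.5 and 33.4 CPM, with -0.26 before and -0.14 after the correction. Foxp4 (chromosome 17, 47867133 to 47924645), a forkhead factor, had 61.8 and 57.2 CPM, with -0.14 before and -0.03 after. In each of the 4 the corrected value was nearer to 0. The genes were chosen by GC content and direction, so a correction for GC content is bound to move them this way.

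The correction touched the genes above to different extents. Klf4, with 57.7% GC, went from -0.20 to -0.13, Srm, with 58.9%, from -0.20 to -0.12, and Setd1b, with 59.1%, from -0.25 to -0.17. Sox2, with 50.5%, stood at -0.17 before and after, and Foxd1, with 54.4%, at -0.24 and -0.21. Gpnmb stayed at 0.46 and 0.44, and Gdf3 at 0.65 and 0.63. Adjusted p-values of these genes with the correction lay between 0.125 and 0.366.

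Among gene lists, 0 members of any list passed over the 8 pairs, against 0% of all genes, so lists are described by their medians and by members at an unadjusted p under 0.05. At that threshold 4.62% of all genes were higher and 4.85% lower, the median over all genes tested was 0.01 on the log2 scale, and 7192 of 13619 lay above 0. The medians of the families around 2-oxoglutarate were near that of all genes. The median was 0.005 for 42 enzymes of 2-oxoglutarate and the TCA cycle, with 2 members higher and 1 lower, -0.02 for 25 histone demethylases, with 1 and 3, and -0.004 for 21 genes of collagen hydroxylation and crosslinking, with 0 and 0. For 27 genes of the DNA methylation machinery it was -0.001, with 1 higher and 5 lower, where 4.85% of all genes were lower. Tet3, which oxidises methylated cytosine as Tet1 does, had medians of 97.2 CPM with DMSO and 91.3 with DKG (-0.15 ± 0.05, lower in 7 pairs, adjusted p = 0.358). With the GC correction the log2 fold change of Tet3 was -0.11. Kdm6b, a demethylase of lysine 27 of histone H3, had 105 and 93 CPM (-0.17 ± 0.05, lower in 7 pairs, adjusted p = 0.276), and its log2 fold change was -0.09 with the GC correction. Idh1, the cytosolic isocitrate dehydrogenase that makes 2-oxoglutarate, had 133 and 142 CPM (0.15 ± 0.05, higher in 7 pairs, adjusted p = 0.376). Corrected for GC, its log2 fold change was 0.10.

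Hypoxia and HIF targets had a median of 0.03 over 30 genes, with 3 higher and 1 lower. Bnip3, a mitophagy receptor and HIF target, stood at 35 and 47.4 CPM with DMSO in Flag cells at day 8 and at 74.2 and 58 with DKG. In Tet1CD cells of that day it stood at 42.6 and 50.5 CPM with DMSO and 76.8 and 50.7 with DKG, so the large differences were in the pairs numbered 0824. At day 8 its log2 fold change was 0.60 ± 0.13 (adjusted p = 0.0877). Bnip3 shares 16.5% of its stretches of 50 bases with other genes. Glycolysis (20 genes, median 0.02, 1 higher and 1 lower) and the subunits of oxidative phosphorylation (31 genes, 0.01, 2 and 1) showed no common direction.

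Cell cycle genes had a median of 0.04 over 32 genes, with 6 higher and 0 lower at an unadjusted p under 0.05, and 26 above 0. Of all genes, 4.62% were higher and 4.85% lower at that threshold, and 7192 of 13619 lay above 0. At day 8 the median was 0.13 and at day 3 it was -0.01. Ccnb1, the mitotic cyclin, had medians of 124 CPM with DMSO and 130 with DKG (0.16 ± 0.05, higher in 7 pairs, adjusted p = 0.351), and Bub1b, a spindle checkpoint kinase, of 96.6 and 102 CPM (0.13 ± 0.05, adjusted p = 0.429). Cholesterol synthesis (25 genes) had a median of 0.045 with 5 higher and 1 lower, and of 0.016 with the GC correction. Fdft1, the squalene synthase, stood at 132 and 145 CPM and was higher in 8 pairs (0.16 ± 0.04, adjusted p = 0.232). Ebp, a sterol isomerase, stood at 52.6 and 61.6 CPM (0.18 ± 0.05, higher in 7 pairs, adjusted p = 0.28). Srebf2, the factor that turns on this pathway, stood the other way at 243 and 222 CPM (-0.14 ± 0.04, lower in 8 pairs, adjusted p = 0.287), and at -0.08 with the GC correction.

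Interferon response genes had a median of 0.09 over 29 genes, with 8 higher and 0 lower, and 26 above 0, beside 4.62% higher, 4.85% lower and 7192 of 13619 above 0 among all genes. The median was 0.34 in Tet1CD cells at day 8 and -0.07 in Flag cells of that day. Oas2, a sensor of double-stranded RNA, stood at 43 and 39.5 CPM with DMSO and at 61.2 and 70.2 with DKG in Tet1CD cells at day 8. In Flag cells of that day it stood at 4.81 and 7.61 CPM with DMSO and 4.29 and 7.28 with DKG. Its difference between viruses had unadjusted p = 0.0175 and adjusted p = 0.907. Oasl2, a related antiviral protein, stood at 21.1 and 16.1 CPM with DMSO and at 27.9 and 40.5 with DKG in Tet1CD cells at day 8 (0.82 ± 0.20, adjusted p = 0.375). The summed level of the 31 listed genes was higher with DKG in 4 of 8 pairs only.

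Pluripotency genes had a median of 0.08 over 35 genes, with 3 higher and 2 lower, and medians of -0.11 at day 3 and 0.18 at day 8. Tdgf1, a co-receptor for Nodal, stood at 22.6 and 3.06 CPM with DMSO and at 39.3 and 7.34 with DKG in Tet1CD cells at day 8. Lin28a, an RNA-binding protein that blocks let-7, stood at 7.21 and 1.02 CPM with DMSO and 15.4 and 2.69 with DKG in the same cells. Over the 8 pairs the adjusted p-values were 0.193 and 0.316. In both genes the DKG library was the higher one in each of these pairs, and the number 0824 was several times above 0826 with either compound. Nanog stood at 31.3 and 5.87 CPM with DMSO and at 33.9 and 6.63 with DKG in these cells, and over the 8 pairs its log2 fold change was 0.06 ± 0.15. Of germline genes that DNA methylation silences, 5 of 25 could be tested. They had a median of 0.38, with 5 above 0, and 1 was higher at an unadjusted p under 0.05.

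Genes of the starting cells and of other cell types were described in the same way. Fibroblast and matrix genes (33) had a median of 0.02, with 3 higher and 1 lower. S100a4, a calcium-binding protein of mesenchymal cells, stood at medians of 141 CPM with DMSO and 184 with DKG and was higher in 8 pairs (0.21 ± 0.05, adjusted p = 0.149; called by DESeq2 at 0.0315). Of its stretches of 50 bases, 47.4% are shared with another gene. Mesenchymal factors (18) had 0.06, with 3 and 2. Epithelial genes (30) had -0.05, with 1 and 3, and keratinocyte markers (18) -0.10, with 0 and 3. Pkp1, a desmosome protein of stratified epithelium, stood at 57.2 and 45.6 CPM and was lower in 7 pairs (-0.23 ± 0.05, adjusted p = 0.193). Markers of macrophages and blood, endothelium, extraembryonic endoderm, trophoblast and adipocytes had 0 members past an unadjusted p of 0.05 in either direction, with 3, 8, 9, 3 and 4 genes tested. Their medians were -0.08, 0.10, -0.03, 0.24 and -0.04, and single endothelial markers ran from -0.51 to 0.49. Those of muscle (6 tested) had a median of 0.01 with 1 lower, and a range of -0.43 to 0.20. Those of neural cells (10 tested) had a median of 0.07 with 2 higher, and a range of -0.18 to 1.05.

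The other lists had medians between -0.05 and 0.05. At an unadjusted p under 0.05, higher and lower members numbered 0 and 4 of 20 AP-1 and immediate early genes, 0 and 4 of 24 for ribosome biogenesis, 4 and 1 of 24 imprinted genes, and 2 and 0 of 17 for NF-kB and inflammation. They numbered 1 and 1 of 36 for the integrated stress response and serine synthesis, 1 and 1 of 20 for the unfolded protein response, 2 and 1 of 32 Nrf2 targets, and 2 and 2 of 28 for fatty acid metabolism. Among 24 p53 targets 3 were higher and 1 lower, among 23 TGF-beta targets 0 and 1, among 27 nutrient transport genes 0 and 1, and among 29 genes of mTORC1 and lysosome 1 and 1. Among imprinted genes, Mest was higher in 8 pairs (0.22 ± 0.06) and so was Sgce (0.31 ± 0.09), with adjusted p = 0.245 and 0.276. Among AP-1 genes Ier2 was lower in 7 (-0.19 ± 0.05, adjusted p = 0.265). With the GC correction Ier2 stood at -0.09 (unadjusted p = 0.0766), and the median of the AP-1 list went from -0.053 to -0.008. The lower ribosome biogenesis genes were Bop1, Nop2, Noc2l and Ubtf. Their unadjusted p with the GC correction lay between 0.0943 and 0.196 (edgeR). The median of that list was -0.017 before the correction and -0.016 after it.

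By day, 2 genes passed at day 3, both lower with DKG (0.0147% of genes tested; edgeR), and 4 at day 8 (0.0294%), of which 2 were higher and 2 lower. At an unadjusted p under 0.05 they numbered 517 (3.8%) and 1460 (10.7%). The day 3 calls were Gm27029 (-1.84 ± 0.26, adjusted p = 0.0168), which shares sequence with Aarsd1 as above, and Gm10273, which was counted in only 2 of the 8 libraries of that day and shares 94.9% of its stretches with other genes. At day 8, Upf1 (chromosome 8, 70331525 to 70353278), the helicase at the centre of nonsense-mediated RNA decay, fell from 176, 214, 146 and 171 CPM with DMSO to 124, 164, 125 and 134 CPM with DKG (Flag 0824, Flag 0826, Tet1CD 0824 and Tet1CD 0826). It was lower in 4 of 4 pairs, by -0.36 ± 0.06 (adjusted p = 0.0358). With the correction for GC content it was -0.26 ± 0.06 and did not pass (adjusted p = 0.0943). Gm29084 rose by 0.71 ± 0.12 (adjusted p = 0.0466), and Gm38287 and Gm26718 were each at 0 in the 4 libraries of one compound and at most at 10.4 and 9.19 CPM with the other. With the GC correction 8 genes were higher and 2 lower at day 8, and Sox2 was 1 of those lower (-0.26 ± 0.05, adjusted p = 0.0315). Leaving out each pair in turn gave between 0 and 3 calls at day 3, and 0 without Flag 0824, Flag 0826 or Tet1CD 0826 of that day. At day 8 it gave between 3 and 17, with 8 without Flag 0824, 17 without Flag 0826 and 16 without Tet1CD 0826 of that day.

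The effect of DKG differed between the days for 3 genes (0.022%), all of them counted in few libraries, and between the viruses for 0 genes (edgeR; 714 or 5.24% at an unadjusted p under 0.05; lowest adjusted p = 0.11). Malat1 (chromosome 19, 5795690 to 5802672), an abundant noncoding RNA of the nucleus, had a low p in the comparison of viruses. In Tet1CD cells it stood at 1182, 985, 1024 and 849 CPM with DMSO and at 1391, 1270, 1196 and 1194 with DKG, higher in 4 of 4 pairs. In Flag cells it stood at 1444, 1112, 1607 and 1027 CPM with DMSO and at 1129, 810, 1073 and 1145 with DKG, lower in 3 of 4. The difference of the log2 fold changes was 0.64 ± 0.11 (unadjusted p = 1.79e-05, adjusted p = 0.122).

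Fits with an effect of DKG for each virus and day were added after the data had been seen. They held all 16 libraries, so the spread of every pair entered their p-values. With a pair left out, a single pair of that virus and day remains, and such counts rest on it and on the spread of other cells. The effect in Tet1CD cells at day 8 came from 2 pairs. There 9 genes were higher and 2 lower with DKG (0.0808% of genes tested), against 0 higher and 3 lower (0.022%) in Flag cells of that day, where leaving out the pair numbered 0824 gave 350 calls and leaving out 0826 gave 7. Slc38a6, a member of a family of neutral amino acid transporters, stood at 477 and 445 CPM with DMSO and rose to 1042 and 728 with DKG (0.93 ± 0.11, adjusted p = 0.00227). With Vc it stood at 4461 and 4284 CPM. Of its stretches of 50 bases, 22.8% are shared with other genes. Gpr179 (chromosome 11, 97332109 to 97352077), an orphan receptor known from the retina, stood at 45.4 and 25.5 CPM with DMSO and rose to 78 and 47.1 with DKG (0.83 ± 0.14, adjusted p = 0.0305), beside 155 and 119 with Vc. In Flag cells of that day Gpr179 stood at 4.66 and 3.55 CPM with DMSO and 2.73 and 3.38 with DKG. In both genes the 2 Tet1CD libraries with DKG lay between those with DMSO and those with Vc.

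Noct rose from 495 and 551 to 984 and 700 CPM (0.68 ± 0.11, adjusted p = 0.0208), Rab3gap1 from 170 and 175 to 274 and 240 CPM (0.58 ± 0.08, adjusted p = 0.00602) and Gm29084 from 176 and 174 to 418 and 280 CPM (0.99 ± 0.12, adjusted p = 0.00257). Gm38194 rose from 252 and 262 to 645 and 425 CPM (1.04 ± 0.11, adjusted p = 0.00112) and Gm38279 from 29 and 24.2 to 56.9 and 46.8 CPM (0.96 ± 0.12, adjusted p = 0.00257). The pair numbered 0824 had the larger rise in each of these 5 genes. Gm37282 and a gene without a symbol made up the 9. Of these genes, Gm29084 shares 1277 stretches of 50 bases with Noct, Gm38279 shares 362 and Gm38194 shares 10, and Rab3gap1 shares 485 with Slc38a6. For Gm29084 this is 1277 of its 1403 stretches and for Gm38279 362 of 1082, so these counts cannot be fully separated from those of Noct. For Gm38194 and Rab3gap1 it is 10 of 2162 and 485 of 11699, and Gpr179 shares none. With all other genes together, Slc38a6 shares 1795 of its 7881 stretches, Noct 3300 of 10558 and Gm38194 323 of 2162. The part of reads from those other genes in the rises was not tested. Of the 2 lower genes, Gm9774 and Gm26718, each was at 0 in both DKG libraries. Without the pair numbered 0824 no gene passed in these cells, and without 0826 there were 9. Without the pair terms 0 genes passed. At day 3 the difference for Slc38a6 in Tet1CD cells was 0.12 ± 0.12, and it stood at 191 and 254 CPM with DMSO and 243 and 237 with DKG. Its difference between viruses had adjusted p = 0.907.

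**Figure D4:**
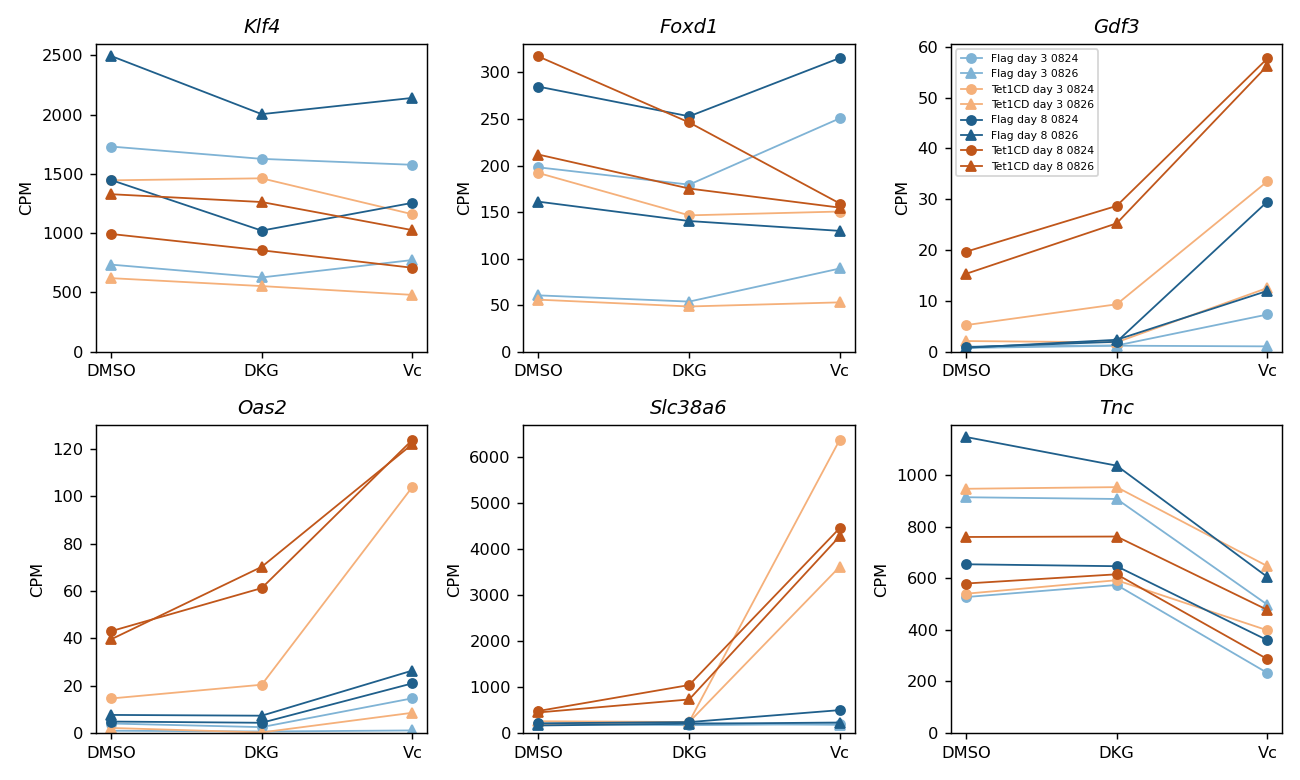
CPM of 6 genes with DMSO, DKG and Vc, with 1 line for each of the 8 combinations of virus, day and number. Klf4 and Foxd1 stand lower with DKG than with DMSO in 7 and 8 of 8 pairs; Gdf3, Oas2 and Slc38a6 are highest with Vc in Tet1CD cells, with DKG at 1042 and 728 CPM of Slc38a6 at day 8; Tnc is lower with Vc than with DKG in 8 of 8.

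DKG and Vc were then compared directly over the same 8 combinations, without use of the DMSO libraries. Doses are not given, so the values set the cultures side by side and do not compare potency. In contrast to DMSO, 394 genes were higher (2.85%) and 649 lower (4.69%) with DKG than with Vc (7.54% of 13835 genes tested; edgeR, adjusted p under 0.05). Without the pair terms there were 8 higher and 60 lower. Leaving out the combination of Flag cells numbered 0824 at day 8 gave 571 calls and that of Tet1CD cells numbered 0826 at day 8 gave 614. Tnc, the matrix protein tenascin C, lay between 574 and 1036 CPM with DKG and between 232 and 646 with Vc. It was higher with DKG in 8 of 8 (0.83 ± 0.08, adjusted p = 7.22e-05), beside 0.03 ± 0.04 against DMSO. Col11a1, a fibrillar collagen chain (0.83 ± 0.07), Dab1, an adaptor of Reelin signalling (0.89 ± 0.08), and Lgr5, a receptor for R-spondins (1.60 ± 0.15), were also higher with DKG in 8 of 8. Mdk, the growth factor midkine, lay between 0.41 and 17.3 CPM with DKG and between 2.37 and 44.2 with Vc and was lower with DKG in 8 of 8 (-1.96 ± 0.16, adjusted p = 6.14e-05). Morc1, a germline gene involved in silencing transposons, was lower by -1.50 ± 0.13 and Sncg, a synuclein, by -1.99 ± 0.17, each in 8 of 8. Cfap70, a cilium protein, stood at 22.5 to 46.4 CPM with Vc in Tet1CD cells and at or below 1.4 CPM in every other library of the comparison.

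Of all 13835 genes tested in DKG against Vc, 2.85% were called higher and 4.69% lower (edgeR). By list, DKG against Vc called 22 of 35 pluripotency genes lower and 1 higher, with a median of -0.92. Of 29 interferon genes 21 were lower (median -0.74) and 0 higher, of 30 epithelial genes 11 were lower (-0.58) and 0 higher, and of 32 Nrf2 targets 9 were lower (-0.18). Of 33 fibroblast and matrix genes 16 were higher and 1 lower (0.31), and of 21 genes of collagen hydroxylation and crosslinking 6 were higher and 0 lower (0.12). Beside DMSO the medians of these lists were 0.08, 0.09, -0.05, 0.035, 0.02 and -0.004. Gdf3 was lower than with Vc by -1.79 ± 0.26 (adjusted p = 0.00126), Lin28a by -2.07 ± 0.37 (adjusted p = 0.0062) and Nanog by -0.92 ± 0.24 (adjusted p = 0.0347). Gpr179 was lower by -2.34 ± 0.39 (adjusted p = 0.00265). The 4 reprogramming factors had 0 called. The summed level of macrophage and blood markers ran from 10.8 to 1529 CPM with Vc (median 16.7) and from 8.32 to 35.6 CPM with DKG (median 13.4). The 3 of 16 markers that could be tested had a median log2 fold change of -1.68, with 1 lower. Their part in the differences between lists was not tested. In bulk samples, fewer cells of a type and less RNA per cell cannot be told apart.

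**Figure D5:**
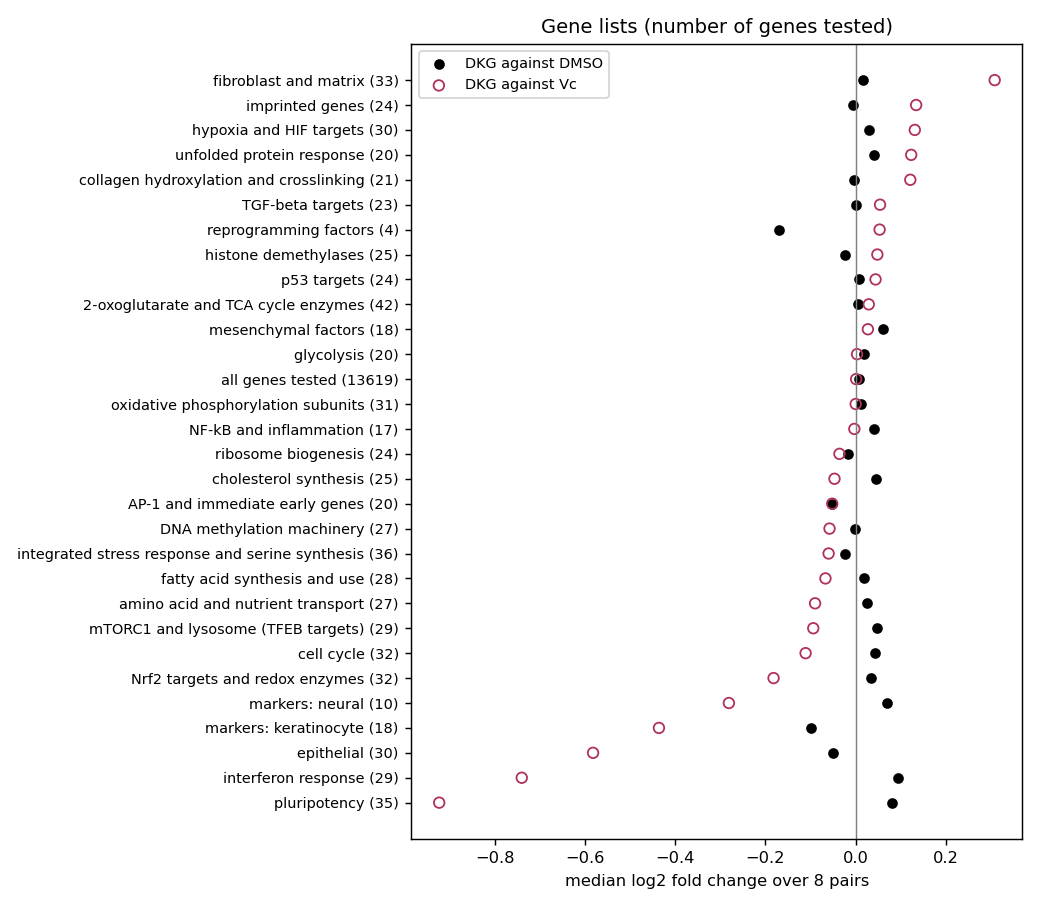
Median log2 fold change over 8 pairs for gene lists with at least 10 genes tested (and the 4 reprogramming factors), for DKG against DMSO (filled) and DKG against Vc (open). Against DMSO the medians lie between -0.17, for the reprogramming factors, and 0.09, for interferon genes; against Vc they run from -0.92, for pluripotency genes, to 0.31, for fibroblast and matrix genes.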

How the data were processed

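RNA-seq of 31 mouse libraries was used, 16 of them for DKG against DMSO and 8 more for DKG against Vc. RNA was extracted with Trizol and made into libraries with a TruSeq RNA kit, per the labels' protocols. Bowtie, RSEM and mm10 are named in the submitters' processing notes, with versions not given in the sources used here. The authors deposited 1 table per library with 29267 genes, holding expected counts, TPM and FPKM, per the file headers. Expected counts from the authors' tables were rounded to whole numbers and tested, TPM as deposited by the authors served in 1 alternative, and FPKM as deposited was not used. Symbols, positions and GC content came from GENCODE M21 (mm10, counted from 1), which matched 28756 genes; the 511 others held at most 0.392% of a library's counts.

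The main test was edgeR 4.0.16 (R 4.3.3), quasi-likelihood, with TMM scaling, filterByExpr (13619 genes kept), a term for each of the 8 pairs and a term for DKG, two-sided, with Benjamini-Hochberg adjustment at 0.05. Days, viruses and DKG against Vc were fitted likewise. The scripts were tested on simulated data. The labels do not say what the numbers 0824 and 0826 mark. The pairing was kept because the differences between them in DKG and in DMSO libraries of the same virus and day correlated at r = 0.481 to 0.721 (4 comparisons of libraries). For libraries of different days r was 0.0352 to 0.155 (16 comparisons). For the same day and the other virus it was 0.5 to 0.677 (8 comparisons). The correlation therefore goes with the number within a day and does not single out pairs within a virus. CPM values were scaled by TMM over all 31 libraries. Alternatives were DESeq2 1.42.0, limma 3.58.1 on log2(TPM + 1), other scaling, no filter, no pair terms, leaving out each pair, all 24 libraries and, added after seeing the data, a GC correction and fits per virus and day. The fits per virus and day shared the spread of all pairs, and leaving out a pair left a single pair for the effect concerned. Sequence shared between genes was counted as stretches of 50 transcript bases.

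Named were the genes with the lowest p in each direction, up to 2 per gene list, those called or lowest in the other tests, and Tet and reprogramming genes. Tdgf1, Slc38a6, Gpr179, Noct, Rab3gap1, Gm29084, Gm37282, Gm20388, Srebf2 and the 4 genes with printed sequence were named after their values were seen. The comparison and the gene lists were chosen with earlier results of these data known. Precision is limited by 3953297 to 6818060 counts per library, and the 95% intervals cover the spread between pairs.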

Additional observations from a re-analysis of the deposited data

Results flagged for a closer look

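The effect of DKG differed between day 8 and day 3 for 3 genes (edgeR, test of the difference itself), each of them at 0 in many libraries, so the fitted log2 differences depend on the prior count and are not sizes to rely on. Gm10273 had a difference of 13.36. It was counted at day 3 in 2 DMSO libraries (9.76 CPM in Flag and 4.32 CPM in Tet1CD cells, both numbered 0824) and in no DKG library, and at day 8 in 2 DKG libraries (2.93 and 4.48 CPM in Tet1CD cells) and in no DMSO library. Of its stretches of 50 bases, 94.9% are shared with other genes, among them Timm23. E130208F15Rik had a difference of -11.256, and Gm26718 one of -7.934. At day 8 Gm26718 stood at 2.83 and 9.19 CPM with DMSO in Tet1CD cells and at 0 in both DKG libraries.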

How the results depend on the processing

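The count of called genes depended on the settings, and the cause was not tested. Without the filter on low counts, edgeR called 110 genes over the 8 pairs, 46 at day 3, 156 at day 8, 59 for the difference between days and 37 for that between viruses, and 45, 28, 260 and 55 in Flag day 3, Tet1CD day 3, Flag day 8 and Tet1CD day 8 cells. DESeq2's Wald test called 11 over the 8 pairs. Without the replicate block (the pair terms) there were 0 calls at day 3, at day 8, for the difference between days and in Tet1CD day 3, Flag day 8 and Tet1CD day 8 cells, and 68 for DKG against Vc; Gpr179 then turned to -0.063 over the 8 pairs. With the GC correction and the pair terms there were 10 calls at day 8, 2 for the difference between viruses and 6 in Flag day 8 cells.

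Leaving out each pair or number gave 1 to 5 calls over the 8 pairs. Most of these runs called Pgk1-rs7, and in several it was the only call. That gene did not pass the filter of the main test, with a mean count of 15.2 in the 16 libraries and a highest count of 244. Leaving out each pair gave 0 to 3 calls at day 3, 3 to 17 at day 8 and 1 to 5 for the difference between days. It gave 0 to 3 for the difference between viruses and 571 to 1120 for DKG against Vc. Within virus and day it gave 0 in Flag day 3 cells, 7 to 350 in Flag day 8 cells, 0 to 1 in Tet1CD day 3 cells and 0 to 9 in Tet1CD day 8 cells.

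The 115 named genes followed here were those with an unadjusted p under 0.05 in the main test (edgeR). Of their 2066 values under these settings, 2062 kept their direction. Every setting used all or part of the same libraries, so this was largely fixed in advance and is not independent support. The other 4 values were Gpr179 above, Oas2 at -0.043 with DESeq2 and -0.017 with limma, and Srf. Srf ran from -0.281 without the libraries numbered 0824 to 0.008 without those numbered 0826. List medians were followed only with DESeq2's scaling, without the filter, without the pair terms and with the GC correction. None moved by as much as the SD of the list's median between single pairs. By that measure the AP-1 list, at -0.053 before and -0.008 with the GC correction, counted as not moved. Depth limits genes near 3 counts, or 0.44 to 0.759 CPM.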
